A study of Mus musculus with 9 samples.

Results

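The Schlafen genes are a family of interferon-inducible genes that lie side by side on mouse chromosome 11. All 7 listed members, Slfn1, Slfn2, Slfn3, Slfn4, Slfn5, Slfn8 and Slfn9, were measured, among 19938 genes in all. They were found by symbol in the platform annotation, and each was represented by 1 probe set, so the rule that a gene's probe set is chosen by its brightness (the mean of all 9 arrays) left nothing to select among them. Expression was measured on 1-colour Affymetrix arrays in CD4-enriched T cells from the spleen of C57BL/6J mice, cultured for 72 h with beads coated with anti-CD3 and anti-CD28 antibodies, a standard stimulus of T cells through their antigen receptor and its costimulator. Wild-type cells, CD69-/- cells and CD69-activated cells were each measured on 3 arrays. CD69-activated cells were wild-type cells that received an anti-CD69 antibody after 24 h and a secondary cross-linking antibody after 48 h, each diluted 1 in 200. CD69 is a lectin-like receptor that T cells display soon after activation, and the series asks which genes depend on it. No group of wild-type cells with a control antibody is described in the labels. The labels call the samples biological replicates but do not tie them to separate mice, so the p-values below reflect only how far these samples spread, which may be technical.

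Values are log2 RMA levels with array medians between 7.40 and 7.56, and arrays of 1 group correlated at 0.996 to 0.998 over all probe sets. The targeted gene Cd69 averaged 12.17 on the log2 scale in wild type, 9.59 in CD69-/- and 11.79 in CD69-activated cells, so its level went with the genotype labels. Genes of the sex chromosomes differed between groups: the female-specific RNA Xist averaged 6.01 in CD69-/- arrays against 12.59 in wild type and 12.95 in CD69-activated arrays, and the Y-linked Eif2s3y averaged 9.78, 4.33 and 4.35. Sex and genotype therefore cannot be told apart in comparisons with CD69-/- cells. In wild type 10 measured CD4 T cell markers averaged a log2 level of 11.49 and 14 B cell markers averaged 12.11, but levels of different probe sets cannot be set against each other and do not measure the mix of cells.

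Schlafen proteins share a core that in some members can bind and cut RNA, and the longer members carry a helicase-like extension as well. In T cells the short members are linked to rest: Slfn1 restrains growth of thymocytes when overproduced, and Slfn2 keeps T cells quiescent and guards transfer RNA from cleavage. Slfn5, a nuclear long member, and Slfn4, a gene of myeloid cells, are among the members induced by type I interferon. Slfn8 and Slfn9 are long members that resemble each other closely.

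Promoter sequence is shown for the 3 members that fell after CD69 activation, Slfn5, Slfn9 and Slfn1, and for Slfn8, whose promoter resembles that of Slfn9. Each run holds the 250 bases before the transcript start in the RefSeq promoter table (build GRCm38.p6), written 5′ to 3′ along the gene, and capitals mark a match on either strand to the core of the interferon-stimulated response element (GAAA, any 2 bases, GAAA).
Slfn5, chr11:82951852-82952101, plus strand: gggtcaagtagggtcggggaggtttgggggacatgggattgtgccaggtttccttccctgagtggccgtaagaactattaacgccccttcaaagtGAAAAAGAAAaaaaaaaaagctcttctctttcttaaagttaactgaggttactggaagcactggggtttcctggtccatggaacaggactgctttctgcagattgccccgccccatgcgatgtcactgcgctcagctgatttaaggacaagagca
Slfn9, chr11:82991831-82992080, minus strand: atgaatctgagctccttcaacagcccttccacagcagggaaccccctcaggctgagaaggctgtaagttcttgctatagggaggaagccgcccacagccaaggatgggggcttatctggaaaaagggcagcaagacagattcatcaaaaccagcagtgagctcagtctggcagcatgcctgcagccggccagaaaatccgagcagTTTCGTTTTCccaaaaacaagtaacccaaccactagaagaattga
Slfn8, chr11:83020811-83021060, minus strand: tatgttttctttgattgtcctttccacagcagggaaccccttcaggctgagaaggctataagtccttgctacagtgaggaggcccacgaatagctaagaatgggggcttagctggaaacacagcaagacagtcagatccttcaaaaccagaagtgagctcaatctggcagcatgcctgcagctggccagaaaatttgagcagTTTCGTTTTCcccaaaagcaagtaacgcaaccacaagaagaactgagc
Slfn1, chr11:83116570-83116819, plus strand: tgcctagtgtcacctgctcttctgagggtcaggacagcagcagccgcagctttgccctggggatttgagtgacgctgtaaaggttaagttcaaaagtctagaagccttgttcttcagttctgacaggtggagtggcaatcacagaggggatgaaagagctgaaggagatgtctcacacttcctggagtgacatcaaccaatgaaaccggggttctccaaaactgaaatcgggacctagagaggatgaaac

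This core was found before 3 of the 7 members. It stood at positions -155 to -146 of Slfn5 (GAAAAAGAAA), at -45 to -36 of Slfn9 and at -48 to -39 of the Slfn8 window shown (GAAAACGAAA in both, on the opposite strand), counting backwards from -1, the last base before the start. A further Slfn8 window in the table, with a start downstream, holds the same match. Of all 32851 promoters in the table, 2.98% hold this core in the same 250 bases, and 3.44% hold it in the full 300-base window that adds 50 bases after the start. None of the 7 members has a match to the gamma-activated site (TTC, any 3 bases, GAA; both strands) in the full window, against 8.3% of all promoters. The Slfn9 and Slfn8 runs were 80.2% identical over their alignment, and all other pairs among the members' promoters were between 45.5% and 53.4% identical. These are matches of letters in short windows and were not tested as binding sites.

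Slfn5 was the member that differed most between the groups. Wild-type arrays read 10.50, 10.54 and 10.49 on the log2 scale, CD69-/- arrays 9.97, 9.93 and 9.97, and CD69-activated arrays 9.49, 9.55 and 9.61. All 3 wild-type arrays were highest, all 3 CD69-activated arrays lowest, and no 2 groups overlapped. CD69-/- cells and CD69-activated cells thus both had a lower Slfn5 level than wild type, and the 2 comparisons share the wild-type arrays. Sex went with genotype in these arrays, and no control antibody group is described.

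**Figure D1:**
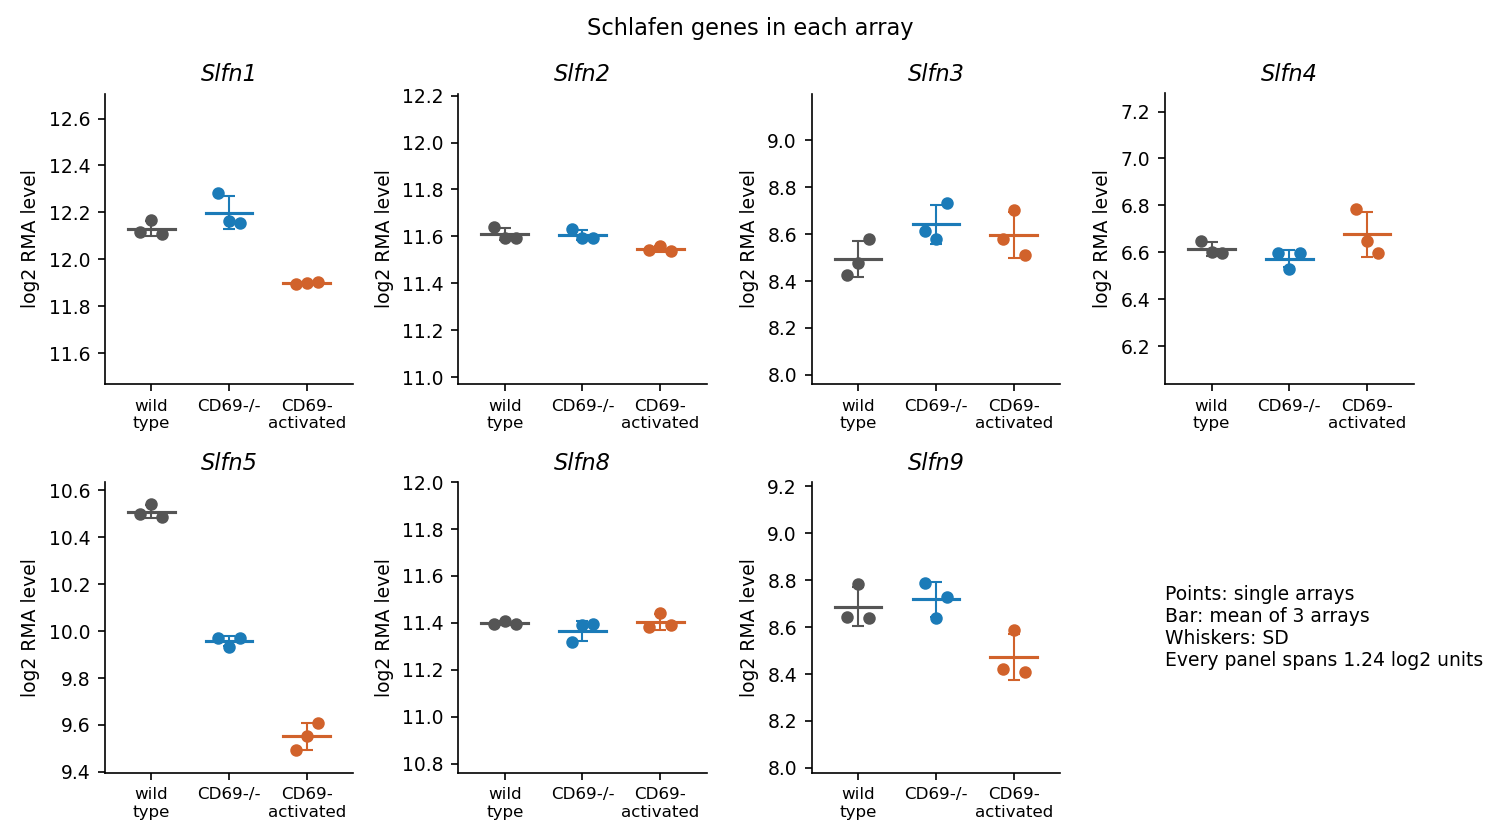
Log2 RMA level (vertical axis) of each Schlafen gene in wild-type, CD69-/- and CD69-activated cells; points are single arrays, bars are means of 3 arrays and whiskers are SDs, and every panel spans the same number of log2 units. Slfn5 steps down from a mean of 10.51 in wild type to 9.96 in CD69-/- and 9.55 in CD69-activated cells. The CD69-activated arrays are also lowest for Slfn1, Slfn9 and, by a small difference that was not called, Slfn2.

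In CD69-/- cells Slfn5 fell 1.47-fold from a mean of 10.51 ± 0.027 to 9.96 ± 0.021 (SD, n = 3 per group; log2 difference -0.55, SE 0.039, limma adjusted p = 4.74e-06). After CD69 activation it fell 1.94-fold to 9.55 ± 0.058 (log2 difference -0.96, SE 0.039, limma adjusted p = 6.74e-08). CD69-activated cells had a lower level than CD69-/- cells as well, by 1.33-fold (log2 difference -0.41, SE 0.039, limma adjusted p = 1.16e-05). Ordered by signed difference from the most negative, Slfn5 was number 61 of 19938 genes after CD69 activation and number 183 in CD69-/- cells, and it was number 1218 between CD69-activated and CD69-/- cells. The 3 calls held with each array of a comparison left out in turn, with a log2 difference between -0.99 and -0.93 for CD69 activation and between -0.56 and -0.54 for CD69-/-.

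Markers of other cell types moved beside the fall of Slfn5 in CD69-/- cells, where 6.78% of all genes were called lower and 8.36% higher. All 14 measured B cell markers fell, and the log2 of their summed level lay between 16.26 and 16.32 in wild type and between 15.79 and 15.89 in CD69-/-. Of 18 monocyte, macrophage and dendritic cell markers 16 fell, with summed levels between 14.07 and 14.12 in wild type and between 13.58 and 13.64 in CD69-/-. Of 10 markers of CD4 T cells 9 rose, their summed level going from between 15.04 and 15.12 to between 15.53 and 15.55. NK cell markers fell in 5 of 6 cases, from between 8.75 and 8.88 to between 8.37 and 8.44, and neutrophil markers fell in 2 of 13, from between 10.12 and 10.17 to between 9.95 and 9.98. The NK cell markers Klre1, Klri2, Klrb1c and Klra8 were dim, with means over all arrays from 4.86 to 5.28. The 25th percentile of all genes was 6.29, and Ncr1 (6.96) and Cd244a (6.73) lay above it. RMA levels have no 0, so no marker is listed at 0. Fewer cells of a type and less RNA per cell cannot be told apart in bulk samples, and the part of these cells in the Slfn5 difference was not tested.

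After CD69 activation most NK cell markers, themselves mostly dim, were lower beside Slfn5 again, and the other marker lists gave other counts. Of all genes, 13.7% were called lower and 10.1% higher in this comparison, so small counts in a list lie near that share. Among the 14 B cell markers 2 rose and 3 fell, with a summed level between 16.21 and 16.26. Monocyte, macrophage and dendritic cell markers had 5 of 18 higher and 4 lower with a summed level between 14.05 and 14.10. Neutrophil markers had 1 of 13 higher (Mmp8, log2 difference 1.35) and 1 lower (Mmp9, -0.25), with a summed level between 10.34 and 10.38. Levels were summed off the log2 scale, so a summed level follows its brightest markers. It can hide opposite changes, as of the myeloid markers Adgre1 (0.85) and Clec7a (-0.45). NK cell markers fell in 4 of 6 cases, to between 8.35 and 8.42, CD4 T cell markers fell in 3 of 10, to between 15.02 and 15.04, and both CD8 T cell markers, Cd8a and Cd8b1, fell, from between 12.93 and 12.95 to between 12.50 and 12.69. In CD69-/- cells both CD8 markers rose, to between 13.41 and 13.46, and neither measured gamma-delta T cell marker was called in either comparison with wild type (limma gave 0 at an unadjusted p under 0.05 as well), with summed levels between 8.76 and 9.04 over all arrays.

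Slfn1, the short member that restrains thymocyte growth, fell after CD69 activation and was not called in CD69-/- cells. Wild-type arrays read 12.12, 12.17 and 12.11 on the log2 scale, CD69-/- arrays 12.28, 12.16 and 12.15, and CD69-activated arrays 11.89, 11.90 and 11.90. The 3 CD69-activated arrays lay below all others, while the wild-type and CD69-/- arrays overlapped. The fall after activation was 1.17-fold (log2 difference -0.23, SE 0.041, limma adjusted p = 0.00214), and against CD69-/- cells it was 1.23-fold (log2 difference -0.30, SE 0.041, limma adjusted p = 0.000166). Between CD69-/- and wild type the log2 difference was 0.070 with a 95% interval from -0.021 to 0.16 (limma adjusted p = 0.317). Both falls passed the threshold with any single array left out, with adjusted p-values of at most 0.0131.

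Slfn2, the short member that keeps T cells quiescent, differed little. Wild-type arrays read 11.64, 11.60 and 11.59 on the log2 scale, CD69-/- arrays 11.63, 11.59 and 11.59, and CD69-activated arrays 11.54, 11.56 and 11.54. The CD69-activated arrays were the lowest and did not overlap the other groups, but the differences were not called. The log2 difference after activation was -0.063 with a 95% interval from -0.14 to 0.010 (limma adjusted p = 0.206), and in CD69-/- cells it was -0.0033, from -0.077 to 0.070 (limma adjusted p = 0.968). Under centring on array medians the activation difference was -0.14 and was called (limma adjusted p = 0.0239), and the CD69-/- difference turned to 0.042.

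Slfn3, a member of intermediate length, was not called in any comparison. Wild-type arrays read 8.43, 8.48 and 8.58 on the log2 scale, CD69-/- arrays 8.61, 8.58 and 8.73, and CD69-activated arrays 8.58, 8.70 and 8.51. The 3 groups overlapped. The log2 difference in CD69-/- cells was 0.15 with a 95% interval from 0.014 to 0.28 (limma adjusted p = 0.143), and it was 0.19 and called with the arrays centred on their medians (limma adjusted p = 0.0245). After activation it was 0.10, from -0.030 to 0.24 (limma adjusted p = 0.253).

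Slfn4, a myeloid member, had its 9 log2 levels between 6.53 and 6.78. Wild-type arrays read 6.65, 6.60 and 6.59 on the log2 scale, CD69-/- arrays 6.59, 6.53 and 6.59, and CD69-activated arrays 6.78, 6.65 and 6.59, and every group overlapped the others. Its mean over all arrays lay at the 30.7th percentile of all genes, and the values carry no detection call. The log2 difference was -0.042 in CD69-/- cells (95% interval from -0.15 to 0.067, limma adjusted p = 0.649) and 0.061 after activation (from -0.047 to 0.17, limma adjusted p = 0.415). Both signs turned with centring on array medians, to 0.0040 and -0.021. In the same CD69-/- arrays the 18 myeloid markers had a median difference of -0.50.

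Slfn9 fell after CD69 activation, while Slfn8, its close relative with a similar promoter, was not called. Wild-type arrays read 8.64, 8.78 and 8.64 for Slfn9 on the log2 scale, CD69-/- arrays 8.79, 8.64 and 8.73, and CD69-activated arrays 8.42, 8.59 and 8.41. The CD69-activated arrays were lowest, with replicate 2 of that group closest to the others. The fall from wild type was 1.16-fold (log2 difference -0.21, SE 0.061, limma adjusted p = 0.0250) and that from CD69-/- cells 1.19-fold (log2 difference -0.25, SE 0.061, limma adjusted p = 0.00743). The call against wild type was lost without wild-type replicate 2 (limma adjusted p = 0.103), without CD69-activated replicate 1 (0.0820) and without CD69-activated replicate 3 (0.0812). Between CD69-/- and wild type the log2 difference of Slfn9 was 0.031 with a 95% interval from -0.10 to 0.16 (limma adjusted p = 0.806).

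Wild-type arrays read 11.40, 11.41 and 11.39 for Slfn8 on the log2 scale, CD69-/- arrays 11.32, 11.39 and 11.39, and CD69-activated arrays 11.38, 11.44 and 11.39. All 9 arrays of Slfn8 lay between 11.32 and 11.44. Its log2 difference was -0.032 in CD69-/- cells (95% interval from -0.11 to 0.048, limma adjusted p = 0.629) and 0.0054 after activation (from -0.075 to 0.085, limma adjusted p = 0.936), and centring on array medians turned the signs to 0.013 and -0.076. The difference between Slfn9 and Slfn8 within an array was lower in the CD69-activated arrays than in all 3 wild-type arrays by 0.22. An exact two-sided permutation test of that difference gave p = 0.1, the smallest that 3 arrays against 3 allow (0.15 after Benjamini-Hochberg adjustment over 6 such tests). The same test for Slfn1 against Slfn2 gave a difference of -0.17 and p = 0.1, also the smallest possible (adjusted exact p = 0.15). Both pairs were chosen after their values were seen, and no p under 0.05 was possible, so these tests decide nothing about the pairs. The probe sequences were not used here, so how far similar members share signal cannot be told.

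**Figure D2:**
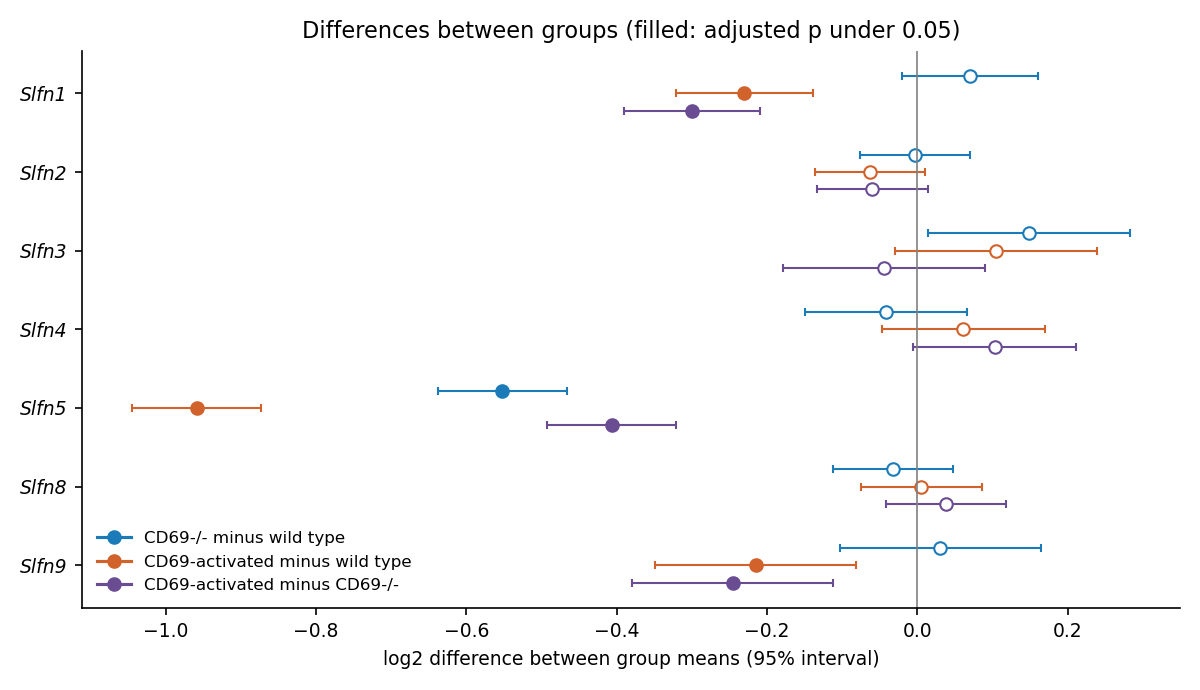
Log2 difference between group means (horizontal axis) with its 95% interval for the 7 Schlafen genes in the 3 comparisons; filled points have an adjusted p under 0.05. Slfn5 is filled in all 3 comparisons at -0.55, -0.96 and -0.41, and Slfn1 and Slfn9 are filled in both comparisons that involve CD69-activated cells.

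Of the 7 members, 1 fell and none rose in CD69-/- cells, where 6.78% of all genes were called lower and 8.36% higher, 15.1% in all. After CD69 activation 3 of 7 fell and none rose, where 13.7% of all genes were called lower and 10.1% higher, 23.8% in all. Against CD69-/- cells, 3 of 7 were lower in CD69-activated cells and none higher, where 21% of all genes were called lower and 21.6% higher, 42.6% in all. In that comparison all 10 CD4 T cell markers and both CD8 T cell markers were lower, and all 14 B cell markers and 17 of 18 monocyte, macrophage and dendritic cell markers were higher, and their part in the Slfn5, Slfn1 and Slfn9 differences was not tested. At an unadjusted p under 0.05 limma gave 1 member higher in CD69-/- cells (Slfn3) and 0 higher in the other comparisons. The median log2 difference of the members was -0.0033 in CD69-/- cells and -0.063 after activation, beside -0.0091 and 0.017 over all genes. By non-overlap of the arrays, Slfn5 and Slfn8 were lower in CD69-/- than in wild-type cells (15.9% of all genes), the Slfn8 groups being apart by less than the rounding of the values above. After activation Slfn1, Slfn2, Slfn5 and Slfn9 were lower without overlap (17.9% of all genes), and the same 4 were lower without overlap than in CD69-/- cells (24.2% of all genes). The list was chosen with earlier results of these data known and is too short to be read as a group.

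The members also differed along the gene cluster, which runs in the order Slfn5, Slfn9, Slfn8, Slfn10-ps, Slfn2, Slfn1, Slfn4, Slfn3 and Slfn14 in the RefSeq gene table. Slfn5os, the antisense gene named for Slfn5 and listed just before it, had log2 levels between 6.52 and 6.87 over the 9 arrays, and its difference was -0.038 in CD69-/- cells (limma adjusted p = 0.836) and -0.075 after activation (limma adjusted p = 0.593). Of the 5 named protein-coding genes on each side of the cluster, 9 were measured, and none was called in either comparison with wild type. Of all genes, 15.1% were called in CD69-/- cells and 23.8% after activation, so with 9 genes few calls would be looked for. Nle1, a ribosome assembly factor, had the largest differences among those 9 genes, 0.16 in CD69-/- cells (limma adjusted p = 0.0540) and -0.14 after activation (limma adjusted p = 0.0573). At an unadjusted p under 0.05 limma gave 2 of the 9, Nle1 and Rasl10b, in CD69-/- cells and 2 of the 9, Nle1 and Ap2b1, after activation. The lowest 95% bound among the 9 was -0.25 (Nle1 after activation), against differences of -0.55 and -0.96 for Slfn5. Between CD69-activated and CD69-/- cells Nle1 was called lower (log2 difference -0.30, 95% interval from -0.40 to -0.19, limma adjusted p = 0.000561), beside a difference of -0.41 for Slfn5.

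**Figure D3:**
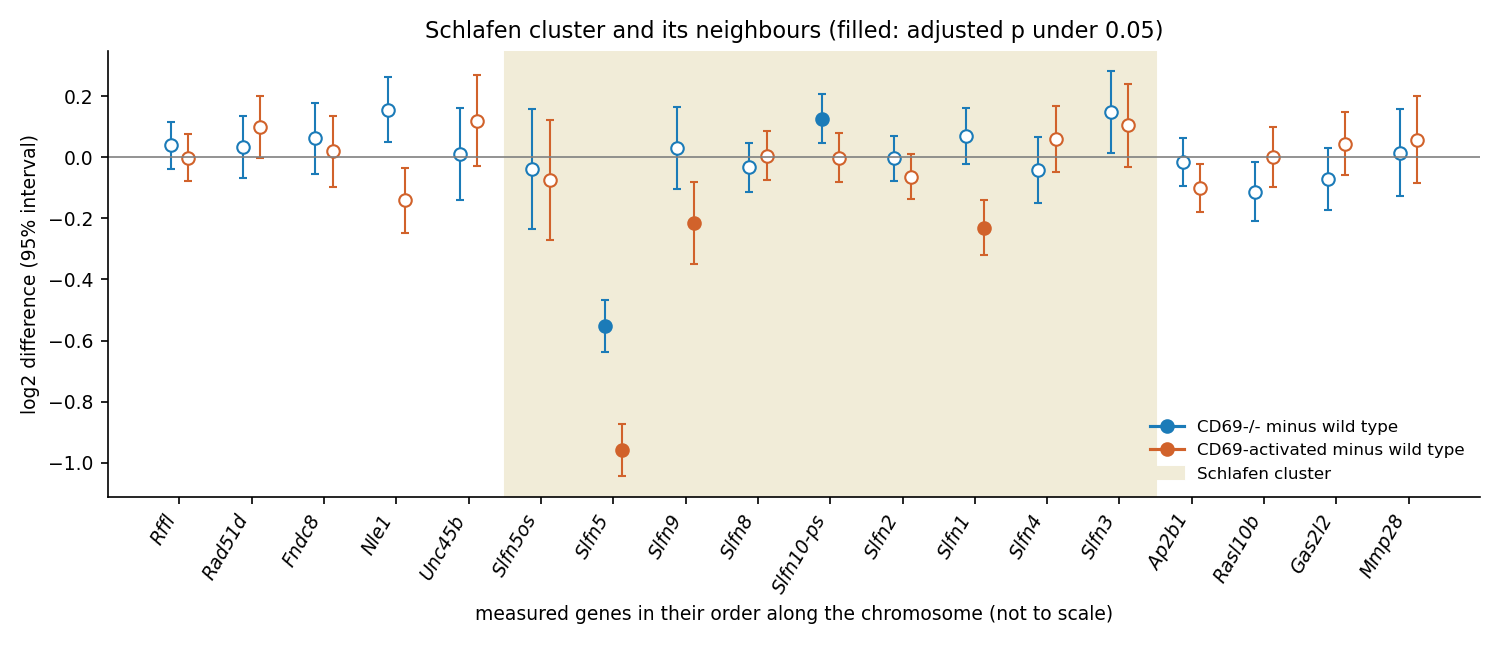
Log2 difference from wild type with its 95% interval (vertical axis) for the measured genes of the Schlafen cluster (shaded) and its neighbours, in chromosomal order; filled points have an adjusted p under 0.05. Slfn5 stands apart at -0.55 and -0.96, and the flanking genes lie between -0.14 and 0.16.

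Interferons signal through paired receptors and JAK kinases to STAT and IRF transcription factors, which switch on antiviral target genes. Of 6 ligand and receptor genes, the T cell cytokine gene Ifng rose in CD69-/- cells (log2 difference 0.45) together with the receptor gene Ifnar2 (0.19), and Ifng alone fell after CD69 activation (-2.57). Among all genes, 8.36% were called higher in CD69-/- cells and 13.7% lower after activation, and 1 of 6 lies near the latter share. Ifng had log2 levels of 11.67, 11.68 and 11.66 (wild-type arrays), 12.07, 12.06 and 12.22 (CD69-/- arrays) and 9.11, 9.10 and 9.10 (CD69-activated arrays). It was thus highest in CD69-/- cells, where Slfn5 was below wild type, and lowest in CD69-activated cells, where Slfn5 was lowest too.

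Of 10 measured signalling and transcription factor genes, 1 rose and 2 fell in CD69-/- cells: Usp18, a brake on the interferon receptor, rose by 0.40, while Irf8 (-0.23) and Stat2 (-0.18) fell. After CD69 activation 4 of 10 fell and none rose, led by Socs1, an inhibitor of JAK kinases (-0.38), and Irf7, an amplifier of the interferon response (-0.32). Stat2 (-0.16) and Usp18 (-0.15) were the others. Of 29 measured interferon targets, 6 rose and 9 fell in CD69-/- cells with a median of 0.025, and 20 fell and none rose after activation with a median of -0.23. The median of all genes was -0.0091 and 0.017 in these comparisons. The shares of all genes called were 8.36% higher and 6.78% lower in CD69-/- cells, and 10.1% higher and 13.7% lower after activation. The 1 of 10 signalling and transcription factor genes that rose in CD69-/- cells lies near that share. In the same CD69-/- arrays all 14 B cell markers were lower and 9 of 10 CD4 T cell markers higher. The part of the cell mix in the differences of interferon genes was not tested.

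Single targets split in different ways beside Slfn5. Oas2, an antiviral synthetase, had the same order of groups as Slfn5, with log2 levels of 9.96, 9.89 and 9.99 (wild-type arrays), 9.56, 9.50 and 9.56 (CD69-/- arrays) and 9.26, 9.29 and 9.38 (CD69-activated arrays) (differences of -0.41 and -0.63 from wild type). Oas3, from the same synthetase family, rose by 0.42 in CD69-/- cells and fell by 0.55 after activation. Ifit1, an RNA-binding antiviral protein gene, rose by 0.44 in CD69-/- cells and fell by 0.41 after activation. Samd9l, a restraint on protein synthesis in infected cells, fell by 0.43 in CD69-/- cells and had means of 11.15 after activation and 11.13 in wild type. After activation Oasl2 (-0.50) and the RNA sensor gene Dhx58 (-0.49) fell as well. None of the 45 measured interferon genes had a log2 difference below that of Slfn5 in CD69-/- cells, only Ifng did after activation, and 7 did between CD69-activated and CD69-/- cells.

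Over the whole interferon list, 9 of 45 measured genes rose and 11 fell in CD69-/- cells, and 25 fell and none rose after activation (limma gave 2 higher at an unadjusted p under 0.05). The called shares were 20% higher and 24.4% lower in CD69-/- cells, beside 8.36% and 6.78% of all genes, and 55.6% lower after activation, beside 13.7% of all genes. The count of 11 was 5 with array medians centred and between 6 and 8 with single arrays left out (6 without wild-type replicate 2, CD69-/- replicate 1 or CD69-/- replicate 2, and 7 without wild-type replicate 3 or CD69-/- replicate 3). It was 7 with the replicate number as a block.

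**Figure D4:**
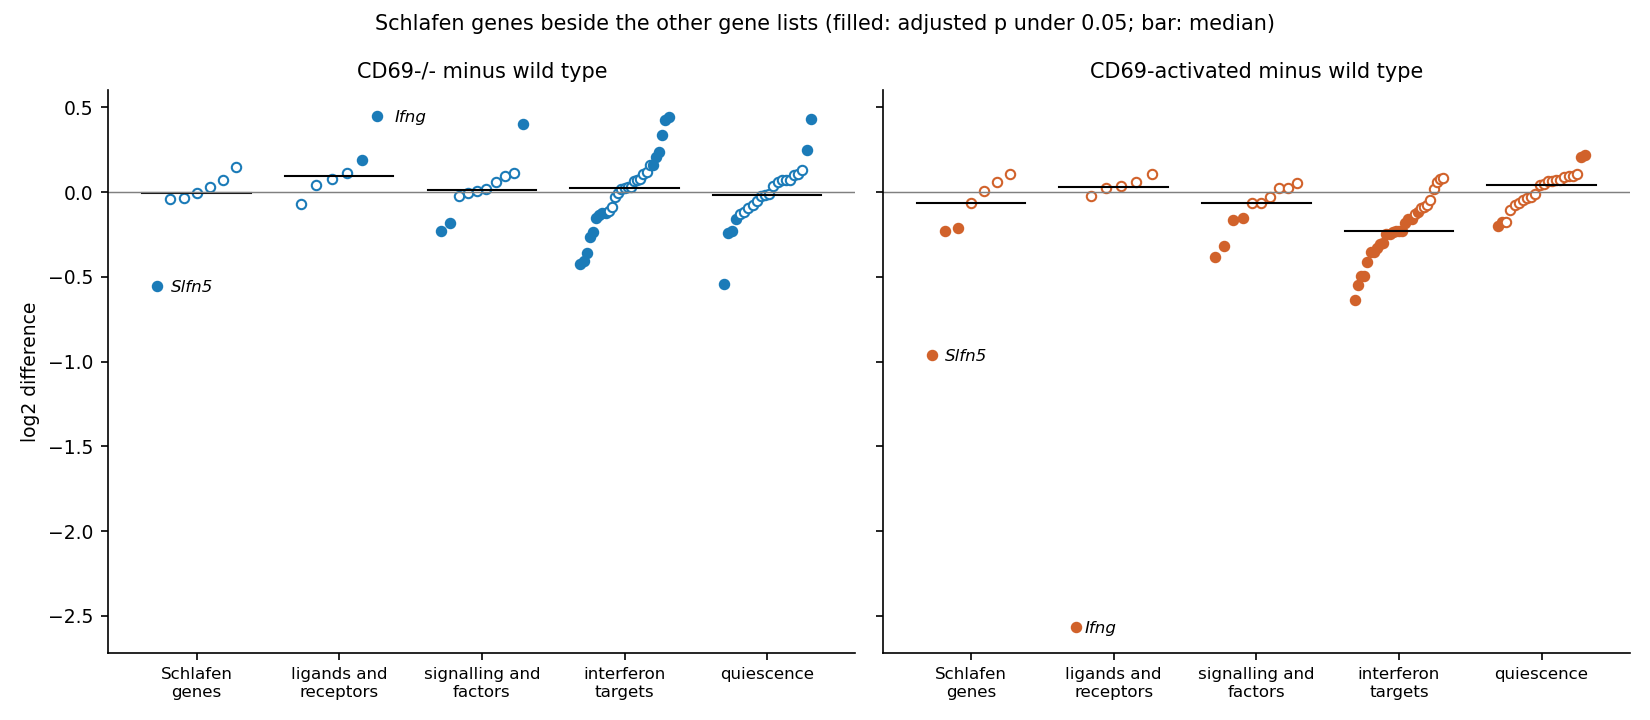
Log2 difference from wild type (vertical axis) of single genes in the Schlafen family, the 3 interferon lists and the quiescence list, for CD69-/- cells (left) and CD69-activated cells (right); filled points have an adjusted p under 0.05 and bars are medians. Slfn5 lies at -0.55 and -0.96, and the interferon targets have medians of 0.025 and -0.23.

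Because Slfn1 and Slfn2 are linked to T cell rest, genes of quiescence and of proliferation were set beside them. Of 22 measured quiescence genes, 2 rose and 4 fell in CD69-/- cells, and 2 rose and 2 fell after activation. These are 9.09% higher and 18.2% lower in CD69-/- cells, where all genes gave 8.36% and 6.78%, and 9.09% each way after activation, where all genes gave 10.1% and 13.7%. Klf2, a transcription factor of resting T cells, fell by 0.54 in CD69-/- cells and by 0.20 after activation. The survival receptor gene Il7r (0.43) and the transcription factor gene Lef1 (0.25) rose in CD69-/- cells, where S1pr1, a receptor for egress from lymphoid organs, fell by 0.24. Cell type markers shifted in the same CD69-/- arrays, and their part in these differences was not tested. After activation Bach2, a repressor of effector genes (0.22), and Tsc1, a brake on mTOR (0.21), rose, and Klf6 fell by 0.18. The counts after activation changed with scaling: 1 rose and 6 fell with array medians centred, and 7 rose after cyclic loess.

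All 14 measured proliferation genes fell after activation, with a median of -0.97, in the same arrays in which Slfn1 fell by 0.23. In this comparison 13.7% of all genes were called lower and 10.1% higher. Rrm2, a ribonucleotide reductase subunit, fell by 1.35, the mitotic kinesin Kif11 by 1.25, the topoisomerase Top2a by 1.21 and the checkpoint kinase Bub1 by 1.20. In CD69-/- cells 1 of the 14 rose, the replication helicase subunit Mcm5 (0.18), and 1 fell, the mitotic kinase Aurkb (-0.27). These counts are 7.14% each way, near the shares of all genes, 8.36% higher and 6.78% lower. Of 3 measured genes of transfer RNA cleavage and its prevention, the process in which Slfn2 acts, limma called none in CD69-/- cells (1 was higher at an unadjusted p under 0.05), and only Nsun2, a transfer RNA methylase, fell after activation (-0.24, limma adjusted p = 0.00342).

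Likeness to each member was measured as Pearson's r of log2 levels over the 9 arrays, which shares the 3 groups and so mostly follows their means. The genes most like Slfn5 were Flt3, a receptor of dendritic cell progenitors (r = 0.995), Scin, which severs actin filaments (0.995), and Ccl22, a chemokine of dendritic cells and activated T cells (0.992). Flt3 differed by -0.39 in CD69-/- cells and by -0.78 after activation, Scin by -0.72 and -1.28, and Ccl22 by -0.70 and -1.43, beside -0.55 and -0.96 for Slfn5. Cell type markers differed between the same groups, and their part in this likeness was not tested. For Slfn1 the leading genes were Echdc1 (0.993), Pcbp1 (0.988) and Olr1 (0.984), and for Slfn9 they were Ube2z (0.987), Cox17 (0.985) and Msl3 (0.983). For Slfn2, Slfn3, Slfn4 and Slfn8, whose levels differed little between groups, the highest r was 0.964 with Lrrc59, 0.948 with Efcab2, 0.970 with Sel1l2 and 0.976 with Olfr62. With so many genes and 9 arrays, high r values occur without any relation, and no p is given.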

How the data were processed

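The authors deposited log2 expression values of 9 arrays, and the submitters' processing notes name RMA, oligo and R 2.12.1. No source used here gives the settings of RMA. In its usual form it subtracts background, makes the array distributions equal and combines the probes of a set, which compresses large changes. Arrays give no read depth, so precision is limited by there being 3 per group.

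Of 35556 probe sets, 21789 had 1 gene symbol in the platform annotation, 1621 several and 12146 none. Symbols were updated by gene ID (21698 matched the RefSeq table, GRCm38.p6), and the brightest probe set by the mean of all arrays stood for each of 19938 genes. Gene coordinates of that table were used only for gene order. Promoter windows came from the RefSeq promoter table of the same build and matched all 7 members by symbol.

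Groups were taken from the sample titles. Values were fitted with limma 3.58.1 in R 4.3.3 (3 group means over 9 arrays, eBayes, 6 residual and 4.78 prior degrees of freedom), two-sided, and called at a Benjamini-Hochberg adjusted p under 0.05 over all genes. Intervals are 95% intervals of the fit. The procedure was tested on simulated data. Promoters were aligned with Biopython 1.88, and figures drawn with matplotlib 3.10.9 in Python 3.11.15.

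The members and gene lists were chosen with earlier results of these data known. All members were named, then up to 4 called genes of a list with the largest differences, the 3 genes most like each member (predicted and clone-named genes left out) and 5 neighbours on each side. Alternatives were centring on array medians, cyclic loess, leaving out the dimmest 25% of genes, all probe sets, mean of a gene's probe sets, a fit to just the 2 groups compared, array weights, a robust prior with an intensity trend, a block for the replicate number and leaving out each array.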

Additional observations from a re-analysis of the deposited data

How the results depend on the processing

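The Slfn5 and Slfn1 calls kept direction and side of the threshold under all 9 alternatives and with each array left out. Centring on array medians moved the median of all genes by -0.13 between CD69-activated and CD69-/- cells and by less elsewhere. Under it 1 member (Slfn3) was higher in CD69-/- than in wild type, and 5 members (Slfn1, Slfn2, Slfn3, Slfn5 and Slfn9) were lower in CD69-activated than in CD69-/- cells. The calls over all genes were then 2462 higher and 886 lower in CD69-/- cells (1667 and 1351 as deposited), 764 and 4741 after activation (2015 and 2727), and 1354 and 7990 between CD69-activated and CD69-/- cells (4314 and 4187). After cyclic loess 1 member, Slfn8, was higher in CD69-activated than in CD69-/- cells (log2 difference 0.096, limma adjusted p = 0.0460), and 41.9% of the genes called in that comparison were higher, against 50.7% as deposited. Leaving out single arrays gave 1092 to 1374 genes higher in CD69-/- cells (1092 without wild-type replicate 3) and 0 to 1 members higher in CD69-activated than in CD69-/- cells, the 1 being Slfn4 without CD69-activated replicate 3 (0.14, limma adjusted p = 0.0413). In the interferon list the count of genes higher in CD69-/- cells was 15 with centring, and 1 gene was higher after activation with cyclic loess, with the mean of a gene's probe sets or without CD69-activated replicate 2. Between CD69-activated and CD69-/- cells 3 were higher, 1 with centring and 6 after cyclic loess. In the quiescence list 5 genes were higher in CD69-/- cells with centring, 5 were higher after activation with a trend, 1 was lower after activation without wild-type replicate 2, and 3 were higher than in CD69-/- cells with centring against 8. The causes were not tested.

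With the replicate number as a block, Slfn5 kept its differences of -0.55 (limma adjusted p = 4.13e-05) and -0.96 (1.30e-06). The numbers did not pair the samples: deviations of same-numbered arrays correlated between -0.24 and 0.14. The block gave 1 member lower in CD69-/- cells and 3 after activation. RMA values without detection calls limit what can be said of dim members such as Slfn4.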

Other observations

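Other genes of the family, outside the list above, were measured as well. Slfn10-ps, a pseudogene between Slfn8 and Slfn2, had log2 levels of 9.42, 9.43 and 9.43 (wild-type arrays), 9.56, 9.60 and 9.50 (CD69-/- arrays) and 9.43, 9.44 and 9.40 (CD69-activated arrays). It was thus highest in CD69-/- cells, by 0.13 over wild type (limma adjusted p = 0.0400). That call was lost with any array other than CD69-/- replicate 3 left out of the 6 compared (limma adjusted p-values from 0.0890 to 0.140), after cyclic loess (0.136) and with the replicate block (0.0689). CD69-activated cells were lower than CD69-/- cells by 0.13 (limma adjusted p = 0.0163), a call lost without CD69-/- replicate 2 (0.0655) and after cyclic loess (0.139).

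Slfnl1, a Schlafen-like gene outside the cluster, had log2 levels of 7.39, 7.41 and 7.50 (wild-type arrays), 7.32, 7.35 and 7.34 (CD69-/- arrays) and 7.60, 7.73 and 7.49 (CD69-activated arrays). It was higher after activation by 0.18 (limma adjusted p = 0.0428), although the arrays overlapped, and higher than in CD69-/- cells by 0.27 (limma adjusted p = 0.00247).

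Several arrays shared exactly the same deposited value for 4 of the 7 members. Slfn4 had 1 value in 4 arrays, Slfn2 and Slfn3 had 1 value in 3 arrays each, and Slfn9 had 1 value in 2 arrays. Such ties occurred in 10272 of all genes (51.5%). Slfn1, Slfn5 and Slfn8 had no tied values.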
